A study of Mus musculus with 6 samples.

Results

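Endothelial identity transcription factors, the DNA-binding proteins that set and keep the gene programme of blood vessels, were measured in glomerular endothelial cells (GEC) of normal and diabetic mice. The genes were Sox7, Sox17 and Sox18 of the SoxF group, the ETS factors Erg, Fli1 and Ets1, the factors Tal1, Gata2 and Gata5, and the orphan nuclear receptor Nr2f2. These 10 genes were taken by name, each through its probeset with the highest mean signal among probesets annotated to a single gene, out of 19938 genes with such a probeset. Each had exactly 1 probeset, and 0 probesets listing several genes held any of them. The arrays fell into 2 groups of 3, with 1 array per sample. Normal mice carried the genotype Tie2-GFP/ +/+ and diabetic mice Tie2-GFP/ DB/DB. The second group, called db/db, lacks a working leptin receptor and becomes obese and diabetic. All animals were 7 months old, and all carried the Tie2-GFP transgene, in which the promoter of the endothelial receptor gene Tek drives a green fluorescent protein. GFP positive cells were sorted from sieved glomeruli, so any cell in which this promoter is active could enter the gate. The labels call the samples biological replicates and do not give the number of animals behind each.

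Endothelial identity is not set by a single master gene but by factors that bind side by side. ETS proteins recognise a short GGAA core in the enhancers of nearly every endothelial gene, SoxF proteins act with Notch signalling in arteries, Nr2f2 holds Notch signalling down in veins, and Tal1 and Gata2 are shared with blood cell precursors. Gata5 is best known from the endocardium and the developing heart.

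Signal was log2 probeset intensity, in which a difference of 1 is a doubling. Array medians lay between 7.00 and 7.04. Normal replicate 2 stood apart, with a score of 65.7 on the first principal component (30.5% of the variance) where the other arrays lay between -18.5 and -7.82, and where a factor's change depended on it or on another array, the value without that array is given too. Pan-endothelial markers were present as a group: 20 of 20 passed the level filter, with Emcn, a sialomucin of capillary endothelium, at 13.59 ± 0.02 in normal and 13.63 ± 0.04 in db/db (mean ± SD, n = 3 per group), Cd34, a sialomucin, at 11.79 ± 0.11 and 12.23 ± 0.18, and Cldn5 as given below. Of the 20 pan-endothelial markers 14 had higher means in db/db and 6 lower. At limma's unadjusted p under 0.05, 3 were higher and 1, Tek, was lower, beside 3.48% and 2.91% of all probesets. Linear signal summed over this list ran from 79247 to 81298 in normal and from 83089 to 84977 in db/db. Ptprc, the common leukocyte antigen, and Gata1 and Klf1, the erythroid factors, were below the filter. Lepr, the gene mutated in db/db mice, was below it too, at 4.92 ± 0.18 and 4.83 ± 0.02, so its signal could not check the labels.

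All 10 factors had probeset signal above the level filter. Each passed the filter of 100 on the linear scale in all 6 arrays. Probesets of olfactory receptors, genes that endothelium is not known to use, served as a description of background: their mean signal had a median of 5.14 and a 95th percentile of 6.93 over 1035 probesets. Only 8 of these (0.773%) lay above the lowest factor mean, that of Nr2f2. Levels of different probesets have no common scale, so the factors are not ranked against each other. The probesets of Sox1 and Sox3, factors of neural tissue, read 8.10 ± 0.09 and 8.33 ± 0.14 in normal GEC and also passed the filter. Tal1, at 8.10 ± 0.08, and Nr2f2, at 7.72 ± 0.10, were not above these in normal GEC. For these factors the signal alone does not establish expression.

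**Figure D1:**
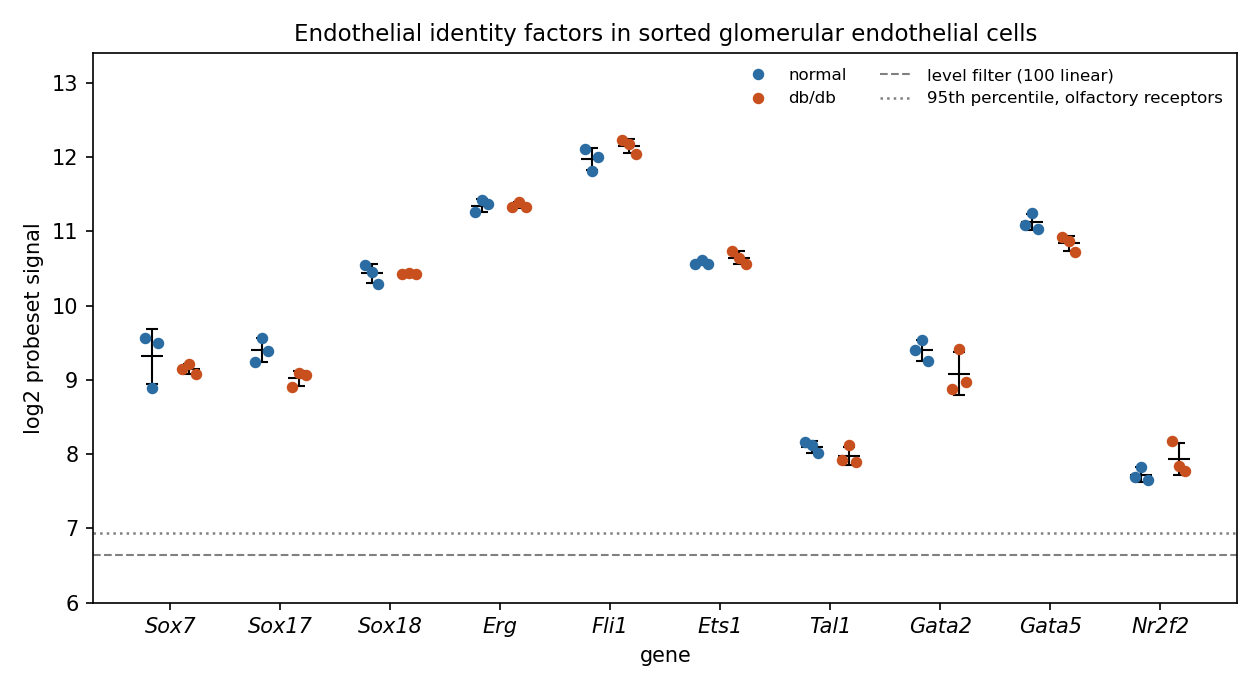
Log2 probeset signal of the 10 factors (1 point per array, normal in blue and db/db in orange), with group means and SD over 3 arrays in black, the level filter of 100 on the linear scale (dashed) and the 95th percentile of olfactory receptor probesets at 6.93 (dotted). All points lie above both lines, and the db/db points of Sox17 and Gata5 lie below all normal points of the same gene.

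The question of the comparison was whether these factors differ between diabetic and normal glomerular endothelium. None of the 10 passed limma's test after adjustment over all 20661 probesets, where 0% of the probesets passed (smallest adjusted p of any probeset = 0.203). At an unadjusted p under 0.05 Sox17 and Gata5 were lower in db/db and 0 factors were higher, beside 2.91% of all probesets lower and 3.48% higher. The same pair were the factors whose groups did not overlap, both lower, beside 5.31% of all probesets lower without overlap and 7.01% higher without overlap. Means were higher in db/db for 4 factors and lower for 6, with a median log2 change of -0.07 against 0.01 over all probesets tested. Both genes appear in lists that the study drew from these samples, Sox17 for its change in db/db and Gata5 for its level in normal GEC, so neither direction is independent evidence. The study's screen for change in db/db asked for a larger fold than the 1.30-fold fall of Sox17 in the values used here.

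**Figure D2:**
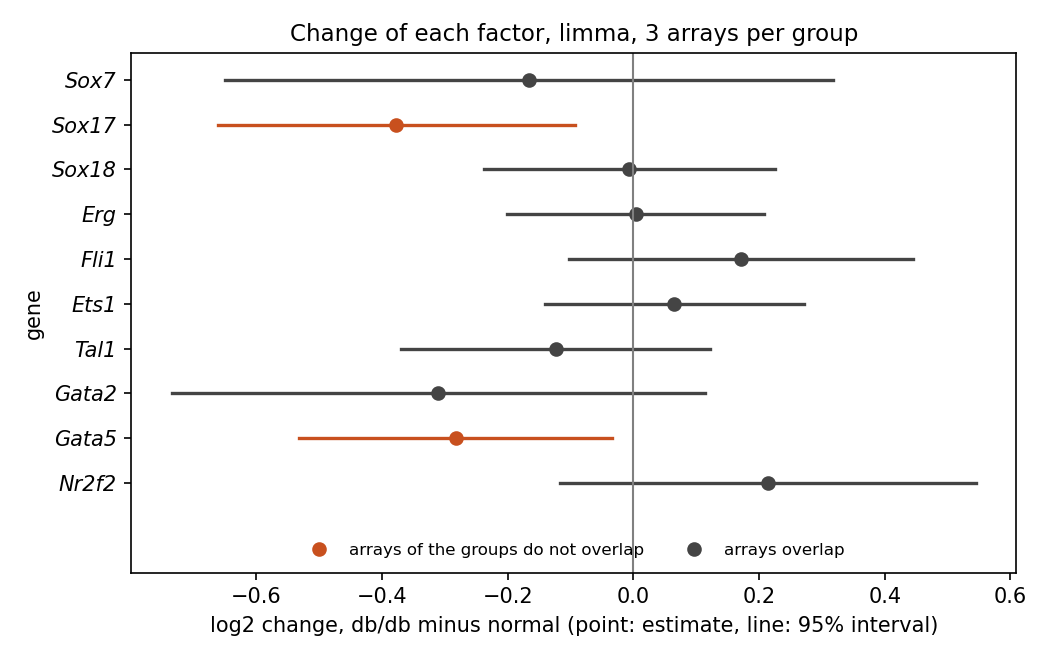
Log2 change of each factor in db/db against normal GEC (points) with the 95% interval of limma's fit (lines), n = 3 arrays per group. The intervals of Sox17 (-0.66 to -0.09) and Gata5 (-0.53 to -0.03) lie below 0, and the other intervals include 0.

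Among the SoxF factors, which overlap in function in forming arteries and lymphatic vessels, Sox17 had the largest change. Sox17, the member most tied to arterial endothelium, read 9.25, 9.57 and 9.38 in the normal arrays and 8.91, 9.09 and 9.07 in the db/db arrays. All db/db arrays were below all normal arrays, with a gap of 0.16 between the groups. The mean was 1.30-fold lower in db/db (log2 change -0.38 ± 0.11 SE, unadjusted p under 0.05, limma adjusted p = 0.684). Without normal replicate 2 the change was -0.29, still at an unadjusted p under 0.05, and without diabetic replicate 1 it was -0.32 and no longer so. The groups stayed apart after quantile normalisation and after median centring, with gaps of 0.16 and 0.14.

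Sox7 read 9.56, 8.89 and 9.50 in normal GEC and 9.15, 9.21 and 9.08 in db/db. Normal replicate 2 was the lowest of the 6 arrays for this gene and the other normal arrays were the highest, so the groups overlapped. The log2 change was -0.17 ± 0.20 SE (limma adjusted p = 0.917). Without normal replicate 2 it was -0.38 with an unadjusted p under 0.05 and an adjusted p = 0.641, whereas it was -0.04 without normal replicate 1 and -0.08 without normal replicate 3. The Sox7 value thus depended on each normal array. Without normal replicate 2, Sox17 and Sox7 were the factors with an unadjusted p under 0.05. Sox18, which acts in lymphatic specification, read 10.55, 10.45 and 10.29 in normal and 10.42, 10.44 and 10.42 in db/db. The db/db arrays fell inside the normal range, and the change was -0.01 with a 95% interval of -0.24 to 0.23, that is, a fold between 0.848 and 1.17. Its sign turned without normal replicate 1 (0.05) and without normal replicate 2 (0.00), and it was -0.08 without normal replicate 3.

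Sox17 and Sox18 could be compared within each array, since a difference between probesets of the same array removes whatever scales the whole array. Sox17 minus Sox18 was -1.30, -0.88 and -0.91 in normal and -1.51, -1.35 and -1.35 in db/db. The groups did not overlap, and the change of Sox17 was lower than that of Sox18 by 0.37 on the log2 scale. With a Sox18 change of -0.01, this largely repeats the Sox17 change of -0.38 and is not separate evidence. The exact permutation test of 3 against 3 arrays gave p = 0.1, the smallest it allows, and p = 0.7 after adjustment over the 7 pairs of factors compared. For the other 6 pairs the groups overlapped, with a difference of changes between -0.21 for Sox17 minus Sox7 and 0.11 for Fli1 minus Ets1. The pairs were chosen after the values had been seen.

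**Figure D3:**
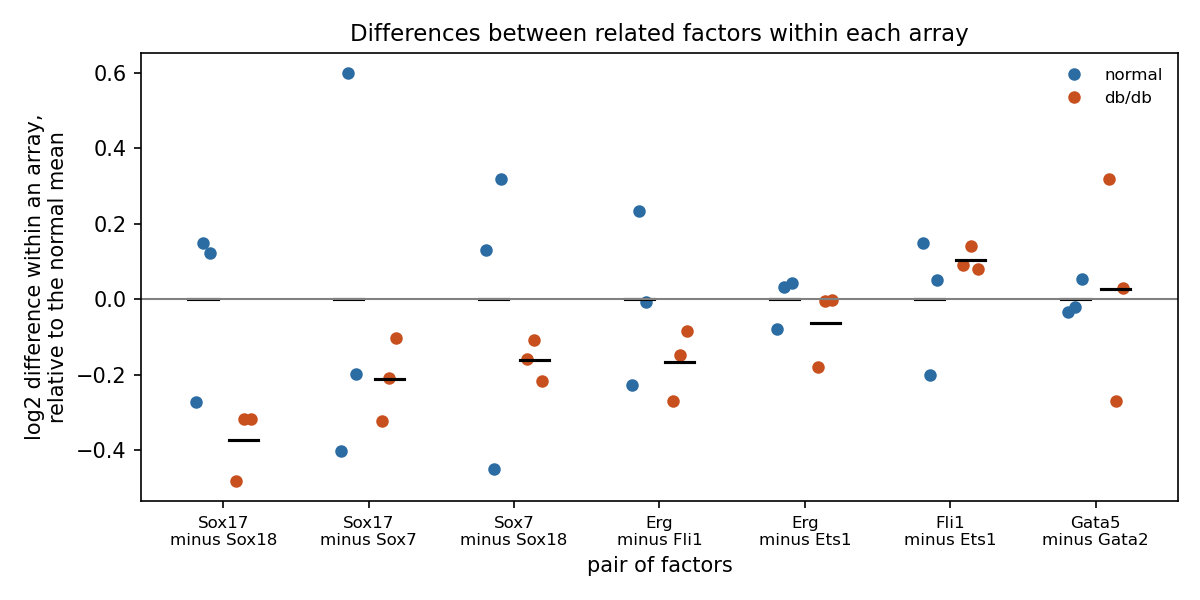
Log2 difference between related factors within each array (points), set to the normal mean of the pair, with group means (black lines), n = 3 arrays per group. Only in the pair Sox17 minus Sox18 are the db/db arrays all below the normal arrays.

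Among the ETS factors, Erg and Ets1 held within a narrow range. Erg, which holds endothelial junctions together and represses inflammatory genes, read 11.25, 11.42 and 11.36 in normal and 11.33, 11.40 and 11.32 in db/db. The db/db arrays fell inside the normal range, the change was 0.00 ± 0.08 SE, and the 95% interval ran from -0.20 to 0.21, a fold between 0.870 and 1.16. Its sign turned without normal replicate 1 (-0.04) and without diabetic replicate 2 (-0.02), and it was 0.04 without normal replicate 2. The spread of Erg within groups was a residual SD of 0.066, and 8.60% of the tested probesets with a single gene had a smaller one. Ets1, linked to vessel sprouting, was as tight, with 9.04% of those probesets below its residual SD.

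Ets1 read 10.56, 10.62 and 10.55 in normal and 10.74, 10.63 and 10.56 in db/db, and the groups overlapped (change 0.07 ± 0.08 SE, limma adjusted p = 0.927). Without diabetic replicate 1 the change was 0.02, and without diabetic replicate 3 it was 0.11. Fli1, the close relative of Erg, read 12.11, 11.81 and 12.00 in normal and 12.23, 12.17 and 12.04 in db/db. Diabetic replicates 1 and 2 were above all normal arrays and replicate 3 was not, and the change was 0.17 ± 0.11 SE (limma adjusted p = 0.847). Without normal replicate 2, the lowest of the 6, it was 0.09. Fli1 and Ets1 are neighbours on the chromosome, with 0 protein-coding genes between them in the RefSeq annotation, and in these arrays the difference Fli1 minus Ets1 overlapped between the groups.

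Gata5 is shown here with its promoter, because its groups did not overlap and a promoter window was matched for it. For Sox17, whose groups did not overlap either, no window was matched. The 250 bases before its start in RefSeq (GRCm38.p6, chr2:180334680-180334929, minus strand) are given 5′ to 3′, with the ETS core GGAA or its reverse complement TTCC in capitals.
Gata5: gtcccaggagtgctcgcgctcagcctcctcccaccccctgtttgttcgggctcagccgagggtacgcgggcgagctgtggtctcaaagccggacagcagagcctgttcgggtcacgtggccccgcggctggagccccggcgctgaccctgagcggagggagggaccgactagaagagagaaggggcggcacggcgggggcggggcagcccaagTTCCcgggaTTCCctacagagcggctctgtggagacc
The window held 2 such cores, both in the reverse orientation and close to the start. Of 32851 promoter windows of this length 93.4% held at least 1 core and 76.8% held at least 2, so the count is common. The GC content of the window was 70.0%, against a median of 52.4% over all windows. Promoters of 5 factors were matched by symbol, Erg, Tal1, Gata2, Gata5 and Nr2f2, with 9 windows in all, of which 8 held a core. A match of these letters is a description and not a binding site.

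Gata5 read 11.09, 11.24 and 11.03 in normal and 10.92, 10.87 and 10.72 in db/db. All db/db arrays were below all normal arrays, with a gap of 0.11. The mean was 1.22-fold lower in db/db (log2 change -0.28 ± 0.10 SE, unadjusted p under 0.05, limma adjusted p = 0.754). Its unadjusted p was above 0.05 in each of 4 fits that left out 1 array (normal replicate 1, normal replicate 2, diabetic replicate 2, diabetic replicate 3), with changes between -0.30 and -0.22. The groups stayed apart after quantile normalisation and median centring, with gaps of 0.09 and 0.14.

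In the list of glomerular endothelial genes 4 of 7 had an unadjusted p under 0.05, all lower in db/db, beside 2.91% of all probesets lower. The median change was -0.59, and 0 of 7 passed after adjustment. Scn7a, a sodium channel subunit, went from 11.13 ± 0.19 to 8.49 ± 0.29, and Lrrc2 went from 10.45 ± 0.13 to 9.58 ± 0.22 (mean ± SD, n = 3 per group). Ehd3, a membrane-shaping protein of glomerular capillaries, was at 12.76 ± 0.10 and 12.65 ± 0.03. The linear signal summed over the list ran from 19981 to 21801 in normal and from 16065 to 16903 in db/db arrays. All 7 are in the study's list of genes high in GEC, drawn from samples that include these normal arrays. That list is longer than the 7 genes read here and holds Gata5, which is not in the count. Neither the count nor the median is therefore independent evidence of a direction. In such sorted bulk samples, fewer cells of a type and less RNA per cell cannot be told apart.

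Tal1 and Gata2, which work together in one complex in blood cell precursors, both had lower means in db/db and overlapping groups. Gata2 read 9.40, 9.54 and 9.25 in normal and 8.87, 9.42 and 8.96 in db/db. Diabetic replicate 2 lay within the normal range and the other db/db arrays lay below it, and the change was -0.31 ± 0.17 SE (limma adjusted p = 0.835). Without diabetic replicate 2 it was -0.48 with an unadjusted p under 0.05 and an adjusted p = 0.735, and without diabetic replicate 1 it was -0.20. Tal1 read 8.16, 8.13 and 8.01 in normal and 7.91, 8.12 and 7.89 in db/db, where diabetic replicate 2 was again the one inside the normal range (change -0.12 ± 0.10 SE, limma adjusted p = 0.881). Leaving out diabetic replicate 2 gave -0.20 for Tal1, and leaving out diabetic replicate 3 gave -0.08. With 95% intervals of -0.73 to 0.11 for Gata2 and -0.37 to 0.12 for Tal1, a change of 0 was within both.

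Blood cell transcripts were read in the same arrays. Alpha globin signal, the mean of 2 probesets that each list several globin genes, was 11.39, 11.35 and 11.71 in normal and 8.68, 9.94 and 9.65 in db/db, and beta globin signal was 12.80 ± 0.35 and 11.03 ± 0.27 (mean ± SD, n = 3 per group). The groups did not overlap for either. Of 12 erythroid markers 6 had a probeset of their own and 3 of these passed the level filter, among them Nfe2 at 6.63 ± 0.02 and 6.74 ± 0.02 and Alas2 at 7.28 ± 0.17 and 7.18 ± 0.11, and Gata1 and Klf1 were below it. Summed over all erythroid markers with a probeset of their own, which leaves out globins, linear signal ran from 620 to 637 in normal and from 615 to 659 in db/db. Megakaryocyte and platelet markers overlapped, from 1296 to 1597 and from 938 to 1332, with Itga2b at 7.34 ± 0.09 and 7.59 ± 0.19 and Ppbp at 8.88 ± 0.40 and 8.04 ± 0.90. Of 7 mast cell markers 2 passed the filter, and Kit, the stem cell factor receptor that Tal1 and Gata2 are known to control in blood cells, went from 7.27 ± 0.22 to 8.35 ± 0.38 (change 1.08 ± 0.22 SE, limma adjusted p = 0.513), while Tpsb2 was at 6.63 ± 0.12 and 6.60 ± 0.09, and Cpa3 and Fcer1a, defining mast cell genes, were below it. The part of these cells in the values of Tal1 and Gata2 was not tested.

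Among 11 measured partners and relatives of the Tal1 complex 1 had an unadjusted p under 0.05 and was lower, beside 2.91% of all probesets. The median change was 0.05, and 0 were higher, beside 3.48%. Ldb1, the adaptor that links the complex to distant enhancers, read 10.45, 10.74 and 10.61 in normal and 10.13, 10.14 and 10.22 in db/db. The groups did not overlap, and the change was -0.43 ± 0.10 SE (limma adjusted p = 0.569). Its paralog Ldb2 was higher in all db/db arrays, at 12.80 ± 0.14 and 12.97 ± 0.02, with an adjusted p = 0.843. Id3, an inhibitor of such helix-loop-helix factors, was at 10.66 ± 0.02 and 10.50 ± 0.07. Runx1 was below the filter. Of the other GATA genes and their cofactors, Gata4 and Zfpm1 passed the filter, with changes of 0.11 and 0.09, and Gata1, Gata3 and Gata6 did not.

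Nr2f2, the venous factor, read 7.68, 7.83 and 7.65 in normal and 8.18, 7.85 and 7.78 in db/db. Diabetic replicate 1 was the highest, the lowest db/db array lay within the normal range, and the change was 0.21 ± 0.13 SE (limma adjusted p = 0.846). Without diabetic replicate 1 it was 0.09. Of its relatives, Nr2f1 was at 7.33 ± 0.19 and 7.07 ± 0.16 and Nr2f6 at 7.66 ± 0.13 and 7.70 ± 0.10. Prox1, the lymphatic factor that acts with Nr2f2, was below the filter.

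The other members of these families were read in the same fit. Of 12 other Sox genes past the filter 0 had an unadjusted p under 0.05, with a median change of 0.01. Sox13 had the smallest p, at 9.32 ± 0.10 and 8.97 ± 0.25 (adjusted p = 0.783), and Sox4 was higher in all db/db arrays, at 7.20 ± 0.16 and 7.45 ± 0.11. Of 16 other ETS genes 0 were higher and 1 was lower at an unadjusted p under 0.05, beside 3.48% and 2.91% of all probesets. This was Etv5, a target of growth factor signalling, at 9.05 ± 0.30 and 8.28 ± 0.45 with overlapping groups (limma adjusted p = 0.753). The median change of these ETS genes was -0.01. Elk3, an ETS repressor, was at 11.96 ± 0.07 and 11.99 ± 0.06, and Etv6 at 8.91 ± 0.46 and 9.34 ± 0.30. Spi1, the ETS factor of myeloid cells, was below the filter.

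Of 21 other factors of endothelium, 13 had lower means in db/db and 8 higher, and the median change was -0.10. At an unadjusted p under 0.05, 2 were lower, beside 2.91% of all probesets. These were Klf4, a flow-responsive factor, at 9.65 ± 0.17 and 9.01 ± 0.04 (change -0.64 ± 0.11 SE, limma adjusted p = 0.376), and Meox1, a homeobox factor, at 9.85 ± 0.50 and 8.91 ± 0.05 (-0.94 ± 0.25 SE, adjusted p = 0.626). Epas1, which encodes HIF-2 alpha, was at 12.79 ± 0.05 and 12.66 ± 0.08.

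Endothelial genes linked to ETS or SoxF factors were set beside the factors. Of 16 ETS-linked endothelial genes 2 were higher and 1 was lower at an unadjusted p under 0.05, with a median change of 0.08. Of 15 SoxF-linked genes 3 were higher and 0 lower, with a median of 0.07, beside 3.48% and 2.91% of all probesets. The lists share genes, so the counts are not separate results. Both higher ETS-linked genes, Cldn5 and Cdh5, are among the 3 SoxF-linked ones, and Unc5b is counted again as an arterial marker. Cldn5, a tight junction protein in both lists, read 9.07, 9.11 and 8.73 in normal and 10.44, 9.43 and 9.96 in db/db (change 0.98 ± 0.27 SE, limma adjusted p = 0.645). It was higher in all db/db arrays. Flt1, a VEGF receptor in both lists, was lower in all db/db arrays, at 12.82 ± 0.05 and 12.70 ± 0.11. Of the SoxF-linked means 9 were higher and 6 lower, and a link of these changes to Sox17 was not tested. Cdh5, the adherens junction cadherin and also in both lists, was at 12.85 ± 0.07 and 13.06 ± 0.03, and Unc5b, a netrin receptor, at 7.76 ± 0.14 and 8.14 ± 0.07. Tek, the angiopoietin receptor, was the ETS-linked gene called lower, at 12.64 ± 0.12 and 12.31 ± 0.16, and its groups did not overlap (limma adjusted p = 0.754). The Tek promoter drives the GFP used for sorting, and the part of the gate in these values was not tested. Kdr, the main VEGF receptor, and Nrp1, a VEGF co-receptor, had changes of 0.10 and -0.02.

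Of 9 genes linked to Gata2, 2 were higher, Vcam1, a leukocyte adhesion receptor, at 7.75 ± 0.32 and 10.43 ± 0.74, and Lyve1, a hyaluronan receptor, at 7.72 ± 0.24 and 8.15 ± 0.12. Adjusted p over all probesets was 0.359 and 0.746 with limma, and 0 were lower. These counts are at an unadjusted p under 0.05, beside 3.48% of all probesets higher and 2.91% lower. Vcam1 is counted again among the venous markers. The study had reported Vcam1 as elevated in db/db from these samples, and a link of these changes to Gata2 was not tested.

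**Figure D4:**
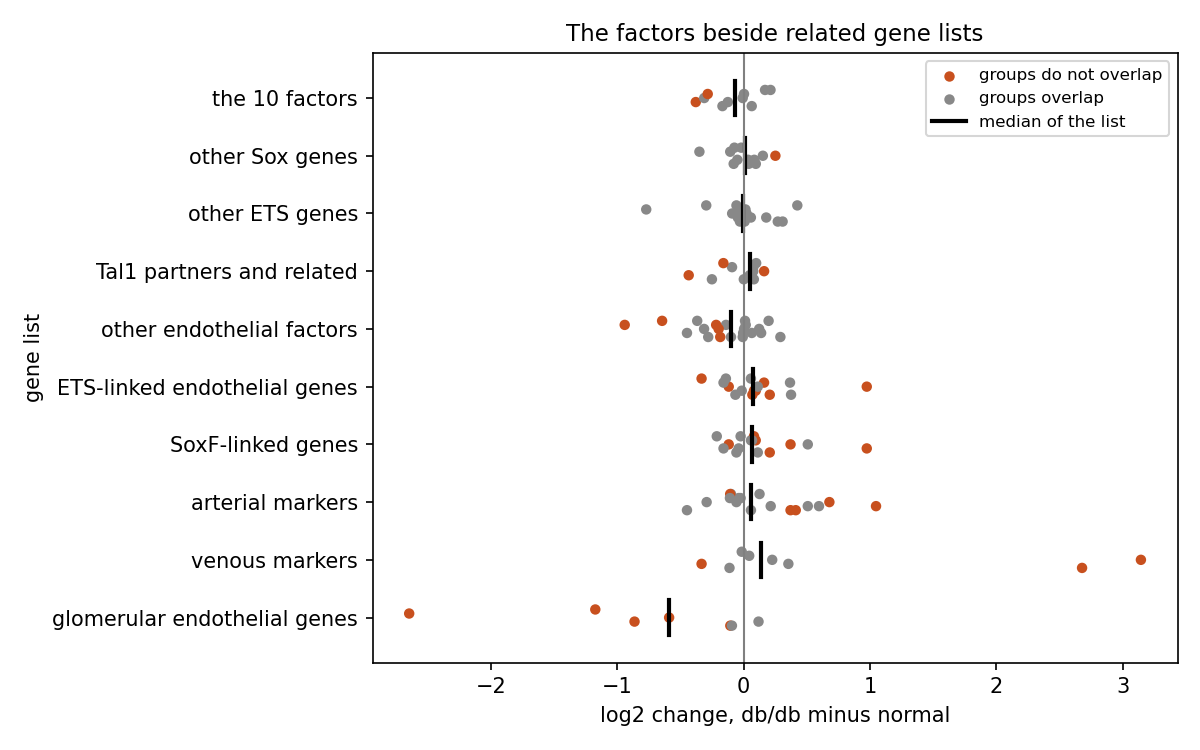
Log2 change in db/db against normal GEC for the 10 factors and for measured genes of related lists (points), with the median of each list (black lines) and genes whose 3 db/db and 3 normal arrays do not overlap in orange. The factors lie between -0.38 and 0.21, and the glomerular endothelial genes have the lowest median, -0.59.

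Arterial and venous markers were read beside Sox17 and Nr2f2. Of 17 arterial markers 4 were higher and 0 lower at an unadjusted p under 0.05, beside 3.48% and 2.91% of all probesets, with 9 means higher and 8 lower, a median change of 0.06, and 0 past the adjusted test. Mgp, a matrix protein of arteries, was at 8.54 ± 0.42 and 9.59 ± 0.21, Alox12, a lipoxygenase, at 10.29 ± 0.14 and 10.70 ± 0.11, and Nrp1 at 13.18 ± 0.09 and 13.15 ± 0.04. Sox17, tied to the arterial programme, was lower in the same arrays, and a link between them was not tested. Of 8 venous markers 2 were higher and 1, Tek, was lower, beside the same shares of all probesets, with a median of 0.14. Aplnr, the apelin receptor, went from 8.65 ± 0.54 to 11.79 ± 0.70. The 2 higher ones, Vcam1 and Aplnr, were reported by the study as elevated in db/db from these samples. The count is therefore not independent evidence of a direction.

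Markers of other cells that the gate could hold were read beside the factors. Of 7 podocyte markers past the filter 3 means were higher and 4 lower. At an unadjusted p under 0.05, 2 were lower, beside 2.91% of all probesets. These 2 were Cdkn1c, at 8.89 ± 0.17 and 8.48 ± 0.09, and Podxl, which endothelium also makes, at 12.08 ± 0.15 and 11.80 ± 0.03. Wt1 was higher in all db/db arrays, at 7.02 ± 0.04 and 7.10 ± 0.01. Linear signal summed over the list ran from 5282 to 6322 in normal and from 4786 to 4907 in db/db. Most of that sum was Podxl, at 4322 and 3576 on the linear scale. Nphs1, the slit diaphragm protein that defines podocytes, was at 6.98 ± 0.11 and 7.05 ± 0.14. Of 5 mesangial and mural markers 0 had an unadjusted p under 0.05, with sums from 1350 to 1516 and from 1456 to 1608, and Pdgfrb was below the filter, with Cspg4 at 6.78 ± 0.13 and 6.66 ± 0.02 and Meis1 at 8.64 ± 0.61 and 8.93 ± 0.13. Of 5 leukocyte markers 1 was higher, beside 3.48% of all probesets. This was Cd68, at 6.72 ± 0.09 and 7.48 ± 0.53. Sums over the leukocyte list ran from 1602 to 1688 and from 1415 to 2499. Coro1a was at 7.21 ± 0.24 and 7.39 ± 0.20 and Tyrobp at 8.83 ± 0.18 and 8.77 ± 1.30. Of 6 proximal tubule and 6 distal nephron markers 0 had an unadjusted p under 0.05. Means were higher in db/db for 5 of the 6 proximal markers and for all 6 distal ones. In each list 1 marker was higher in all db/db arrays, Slc22a6 and Umod, beside 7.01% of all probesets. Sums ran from 2128 to 2168 and from 1984 to 2182 for the proximal list. For the distal list they ran from 1018 to 1157 and from 1136 to 1293. In the proximal tubule list Slc22a6 was at 6.56 ± 0.05 and 6.71 ± 0.09 and Aqp1, a water channel that endothelium also makes, at 10.12 ± 0.03 and 9.92 ± 0.26. In the distal list Umod was at 6.46 ± 0.20 and 6.76 ± 0.10, Slc12a3 at 7.06 ± 0.11 and 7.26 ± 0.21 and Krt8 at 7.87 ± 0.05 and 7.88 ± 0.23. The part of these cells in the values of Sox17 and Gata5 was not tested.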

How the data were processed

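RNA of sorted Tie2-GFP positive GEC was hybridised to Affymetrix Mouse Gene 1.0 ST arrays, 3 normal and 3 db/db, after amplification with a NuGEN kit. The deposited values are log2 probeset signal. The authors' methods give RMA (GeneSpring) as the normalisation, but MAS5 is the tool in the submitters' processing notes, so how the values were made is not settled. No further normalisation was applied. If distributions were equalised upstream, changes are relative to the other probesets of an array.

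The table held 35557 probesets, 21789 with 1 gene symbol, 1621 with several and 12147 with none listed. Of the first, 21698 matched RefSeq by gene ID, which changed 0 symbols. A probeset was kept where 3 arrays reached 100 on the linear scale, which left 20661. Groups were compared with limma 3.58.1 in R 4.3.3 (lmFit and eBayes, two-sided, as db/db minus normal), and p was adjusted by Benjamini-Hochberg over the kept probesets at a threshold of 0.05. The fit was tested on simulated data first. Errors beside levels are SD and beside changes limma's moderated SE. The number of arrays limits the precision, and p-values measure the spread between these samples only.

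The 10 factors and the gene lists were chosen with earlier results of these data known. Beside the 10 factors, each list was given by its counts, its 2 genes with the smallest p and the gene with the highest mean signal, at most 4 a list, Lepr was named as the mutated gene, and defining markers of other cells were named beside results. A few further genes (Sox1, Sox3, Flt1, Wt1, and relatives below the filter) were named after their values were seen. The alternatives were quantile normalisation, median centring, no filter, a level of 200, a replicate block, an intensity trend (alone or with a robust prior), array weights, each array left out, the methods' t-test, 1 probeset per gene, probesets with a single gene only and the mean of a gene's probesets. Differences between factors within an array were compared by exact permutation tests. Promoter windows came from RefSeq. Python 3.11.15 with matplotlib 3.10.9 drew the figures. Summed marker signals cover all markers of a list that have a probeset of their own, below the filter too.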

Additional observations from a re-analysis of the deposited data

How the results depend on the processing

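None of the 10 factors passed limma's adjusted test under any of 18 alternatives, where the lowest adjusted p was 0.539, for Sox17. Between 1 and 2 factors had an unadjusted p under 0.05. Sox17 kept that side in 5 of 6 fits that left out 1 array (change -0.45 to -0.29) and in 12 of 12 other alternatives, and Gata5 in 2 of 6 and 11 of 12. Each factor has 1 probeset, so alternatives that pick or average probesets could alter its SE and p but not its change. Sox18 and Erg were the factors whose sign turned. Over all probesets the count past the adjusted test was 0 and became 1 with 1 probeset per gene, 1 with only probesets of a single gene and 2 with the mean of a gene's probesets, where fewer features were tested. Same-numbered arrays did not deviate together (r = -0.00, 0.04 and -0.03). With 3 arrays per group this does not settle whether the numbers pair the samples. The replicate block left 0 probesets past the adjusted test and 1 factor at an unadjusted p under 0.05, Sox17 (adjusted p = 0.748), and no longer Gata5 (adjusted p = 0.798).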
